A study of Mus musculus with 2 samples.

Results

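The mitosis and spindle genes are 50 genes whose products carry a cell from the entry into mitosis to its division, and they were compared here between Jam3-null and WT leukaemia cells of the mouse. The members were taken by name from the array, and all 50 of 27370 gene names on it were found. They fall into 9 roles: cyclins, CDK1 and entry control, centrosome and polo kinases, the chromosomal passenger complex, the spindle checkpoint, centromere and kinetochore proteins, spindle motors and microtubule proteins, chromosome structure, anaphase onset, and cytokinesis. In a dividing cell, cyclin B with CDK1 starts mitosis, the spindle attaches to the centromeres through the kinetochores, and the checkpoint holds anaphase until every chromosome is attached. The anaphase-promoting complex then marks securin and the cyclins for destruction, separase cuts cohesin, and a contractile ring closes between the daughter cells. Transcripts of most of these genes peak in G2 and M phase, so their summed level in a sample is widely read as a measure of how much of it is dividing.

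The cells were an acute myeloid leukaemia driven by MLL-AF9, a fusion oncogene that was carried together with yellow fluorescent protein (YFP) by the cells of both groups. Cells positive for YFP, Mac-1 (encoded by Itgam) and c-Kit (encoded by Kit) were sorted from bone marrow of female mice and are called leukaemia-initiating cells by the submitters. The Jam3-null group is labelled as lacking Jam3, a junctional adhesion molecule, and the WT group as having it. Each group was 1 array, labelled as cells from 3 mice. How the RNA of these mice was combined, their age, the null allele and the vector that carried MLL-AF9 are not given in the sources used here. With 1 array per genotype there was no replicate, so no test between the genotypes was possible, and every difference below compares these 2 arrays.

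The share of probes well above background was 55.0% in Jam3-null and 61.8% in WT cells. The 2 Jam3 probes (chr9:26905298-26905357 and chr9:26903515-26903574 on mm9) were not well above background on either array, so they did not check the genotype labels. The sort markers Itgam and Kit were measured on both arrays, at processed signals of 3703 and 302 (Jam3-null and WT) for Itgam and of 1237 and 1244 for Kit. Bulk RNA cannot tell fewer cells of a type from less RNA per cell. All 15 neutrophil maturation markers found on the array were over 2-fold higher in Jam3-null cells, against 10.3% of all genes measured on both arrays. These 15 had a summed processed signal of 1265729 against 197021, with Fcnb, Itgb2l and Camp leading at log2 differences of 6.63, 5.64 and 4.92. Ly6g was not matched on the array. The 4 mast cell and basophil markers measured on both arrays (of 6) were all over 2-fold lower, against 8.63% of all genes measured. They were led by Cpa3 at -3.60, Gata2 at -3.21 and Hdc at -2.26, and the sum over the 6 was 5215 against 30196. The summed signals of other lineages were 7958 against 13458 for 8 B lymphoid genes (Pax5 and Cd79a not well above background on either array), 15449 against 4823 for 8 T and NK genes (Cd8a and Ncr1 not above it) and 1007 against 486 for 6 megakaryocyte genes. The T and NK sum was mostly Nkg7 (15160 and 4526), and the other 4 of these genes measured on both arrays were lower in Jam3-null cells, from -1.03 (Lck) to -0.11 (Cd3e, named after its value was seen). These 4 were dim, with signals of 32.3 to 122. Cd3d, also named after its value was seen, went the other way. It was well above background in Jam3-null cells only (71.2 against 13.3). Of the 4 erythroid markers measured on both arrays, 3 were higher and 1 lower, with a median of 1.14. What part these markers have in the values of the mitosis genes was not tested.

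The mitosis and spindle genes were nearly level between the genotypes, on arrays where many other genes were not. All 50 members were well above background on both arrays. Differences are given as log2 of the Jam3-null over the WT value after each array was scaled to its own 75th percentile of signal. The median member differed by 0.06, with quartiles of -0.19 and 0.29 and extremes of -0.78 (Cks1b) and 0.64 (Mki67). Of the 50, 29 were higher and 21 lower in Jam3-null cells, a split that turned to 22 higher and 28 lower when the arrays were scaled on spike-in RNA, and became 37 and 13 with cyclic loess and 34 and 16 with quantile normalization. Of all genes measured, 44.8% were higher and 55.2% lower. None of the 50 reached a 2-fold difference, which 18.9% of the 14351 genes measured on both arrays did (10.3% higher and 8.63% lower). At 1.5-fold, 1 member was higher (Mki67) and 2 were lower (Cks1b and Mad2l1), where 38.8% of all genes measured passed (18.5% higher and 20.3% lower). With cyclic loess these counts were 6 higher and 1 lower, and with spike-in scaling 0 higher and 3 lower. Cyclic loess moved the median of all genes by 0.13, from -0.07 to 0.06.

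The spread of the members was narrow as well as centred. Their interquartile range was 0.48 on the log2 scale, against 0.87 for all genes measured. Among the 7175 genes with a mean signal above the median, which held 46 of the members, it was 0.78, and 15.2% of these brighter genes passed 2-fold and 35.7% passed 1.5-fold. A narrow spread was not particular to the members. The interquartile range was 0.42 for further mitosis genes and 0.45 for DNA replication genes, both described below. It was 0.44 for cohesin genes and 0.32 for genes of the anaphase-promoting complex. The lists of transcription regulators (0.51) and of G1 genes (0.90) were wider. The scanner software's error model gave each member's difference an SD of 0.20 to 0.21, most of which is a fixed error of 0.1 of the signal set in the file header. Repeat spots of 127 probes had a median SD of 0.09 on the same scale. The 95% interval from this error lay above 0 for 7 members (Mki67, Cdc25b, Kif23, Ccnb2, Nusap1, Cdc25a and Cenpe) and below 0 for 5 (Cks1b, Mad2l1, Ttk, Bub1b and Espl1), as it did for 23.3% and 28.3% of all genes measured. These errors cover the measurement on an array and not the spread between mice.

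**Figure D1:**
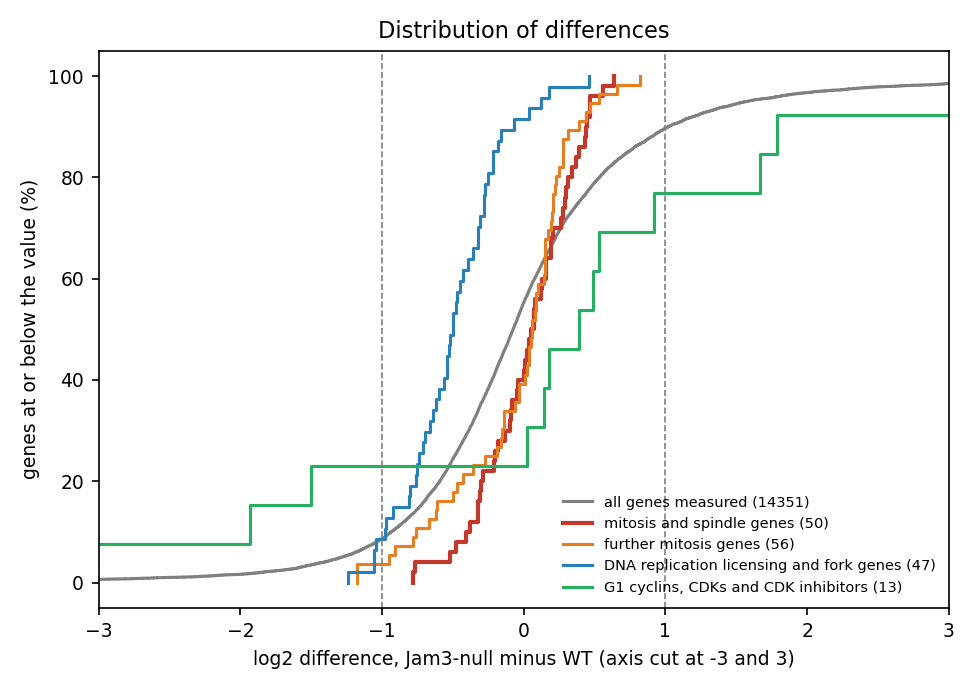
Cumulative share of genes (y axis, percent) by log2 difference, Jam3-null minus WT (x axis). The curves are the mitosis and spindle genes, all genes measured on both arrays, further mitosis genes, DNA replication genes and G1 genes. The x axis is cut, so the most extreme genes lie outside it. The curve of the members is steep around 0 and lies within 2-fold, while the replication curve lies to the left with a median of -0.50.

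**Figure D2:**
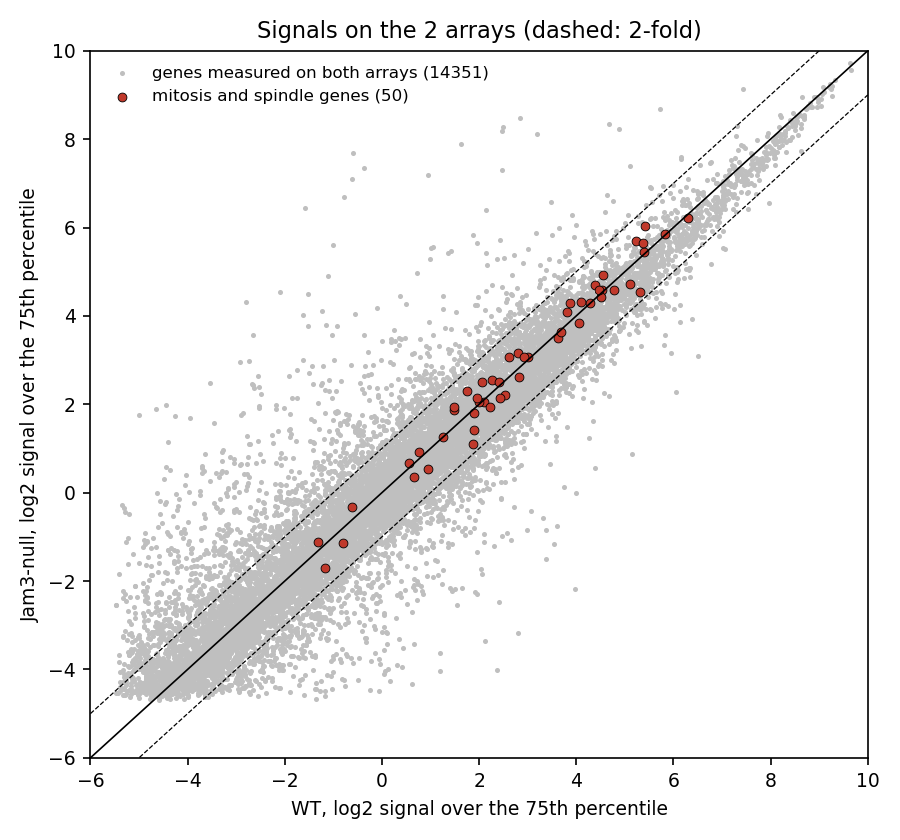
Scaled log2 signal of each gene on the WT array (x axis) and the Jam3-null array (y axis), with members as coloured points over all 14351 genes measured on both arrays. Every member lies within 2-fold of the diagonal, and 46 of the 50 have a mean signal above the median of these genes.

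Many of the genes share a promoter design that the choice of members did not use. G2 and M phase promoters are known for a cell cycle genes homology region (CHR), bound by the DREAM and MuvB complexes, and for CCAAT boxes, bound by NF-Y. In the RefSeq promoter table of the assembly GRCm38.p6, which holds 250 bases before to 50 after each start, 42 of the 50 members had an entry. The CHR letters TTTGAA, on either strand, were in the promoters of 29 of these 42 (69%), against 20.2% of all 27025 genes in the table. CCAAT, on either strand, was in 32 of 42 (76.2%) against 41.1%, and both motifs were in 26 of 42 (61.9%) against 8.97%. The CHR letters lay close to the start: 26 of 42 members (61.9%) had them within 50 bases of it, against 5.72% of all genes. A list of further mitosis genes, described below, had 46 with an entry. Of these, 39.1% had both motifs and 41.3% had the CHR letters within 50 bases of the start. CCAAT was also in 22 of 38 promoters of DNA replication genes (57.9%). A CHR and a CCAAT match can share a letter at their ends. E2F letters (TTCCCGCC, TTTCCCGC or TTTGGCGC, which can overlap each other) were in 3 of 42 members (7.14%) against 3.69% of all genes, whereas 17 of 38 promoters of DNA replication genes (44.7%) had them. A match is a description of letters and not of a bound site.

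Promoters of 6 members are shown because they are the members furthest apart or the central kinase pair: Cks1b and Mad2l1 (lowest), Mki67 (highest), Cks2 (the paralog of Cks1b), and Ccnb2 and Cdk1. Each runs from 150 bases before to 30 after the RefSeq start on GRCm38.p6, 5′ to 3′ on the strand of the gene, with CHR and CCAAT letters of either strand in capitals (TTCAAA and ATTGG are the opposite strand). The windows are Cks1b chr3:89418262-89418441 (minus strand), Cks2 chr13:51645082-51645261 (plus), Mad2l1 chr6:66535071-66535250 (plus), Mki67 chr7:135716350-135716529 (minus), Ccnb2 chr9:70421525-70421704 (minus) and Cdk1 chr10:69352883-69353062 (minus).
Cks1b: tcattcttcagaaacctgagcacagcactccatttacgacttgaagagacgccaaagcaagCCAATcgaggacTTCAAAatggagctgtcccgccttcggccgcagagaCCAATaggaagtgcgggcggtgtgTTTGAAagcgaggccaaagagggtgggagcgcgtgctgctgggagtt
Cks2: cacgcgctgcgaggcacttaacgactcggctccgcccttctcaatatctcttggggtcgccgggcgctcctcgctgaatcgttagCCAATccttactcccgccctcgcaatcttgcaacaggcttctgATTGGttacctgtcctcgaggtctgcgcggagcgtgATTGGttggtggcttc
Mad2l1: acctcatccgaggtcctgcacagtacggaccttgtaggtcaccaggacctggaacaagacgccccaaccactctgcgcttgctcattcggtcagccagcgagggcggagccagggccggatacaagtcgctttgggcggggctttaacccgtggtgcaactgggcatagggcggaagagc
Mki67: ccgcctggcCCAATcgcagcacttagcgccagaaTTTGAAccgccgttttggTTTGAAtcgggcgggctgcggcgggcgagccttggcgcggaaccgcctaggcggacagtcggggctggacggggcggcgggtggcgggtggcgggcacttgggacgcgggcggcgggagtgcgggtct
Ccnb2: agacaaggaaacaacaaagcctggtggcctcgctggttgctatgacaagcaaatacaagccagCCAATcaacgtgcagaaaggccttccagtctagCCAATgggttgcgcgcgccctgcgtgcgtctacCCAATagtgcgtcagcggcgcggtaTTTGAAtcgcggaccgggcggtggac
Cdk1: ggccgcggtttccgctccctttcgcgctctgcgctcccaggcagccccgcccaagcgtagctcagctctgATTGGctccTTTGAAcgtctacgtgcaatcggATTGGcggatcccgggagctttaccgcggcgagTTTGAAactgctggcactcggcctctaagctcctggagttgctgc
Cks1b, Ccnb2 and Cdk1 each have a CHR match within 20 bases of the start and CCAAT letters upstream of it. Mki67 has its pair of CHR matches further up, at 116 and 98 bases before the start. Mad2l1 has neither motif in these letters, and Cks2 has CCAAT letters and no CHR match. The lowest member, Cks1b, and the highest, Mki67, both have the 2 motifs.

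**Figure D3:**
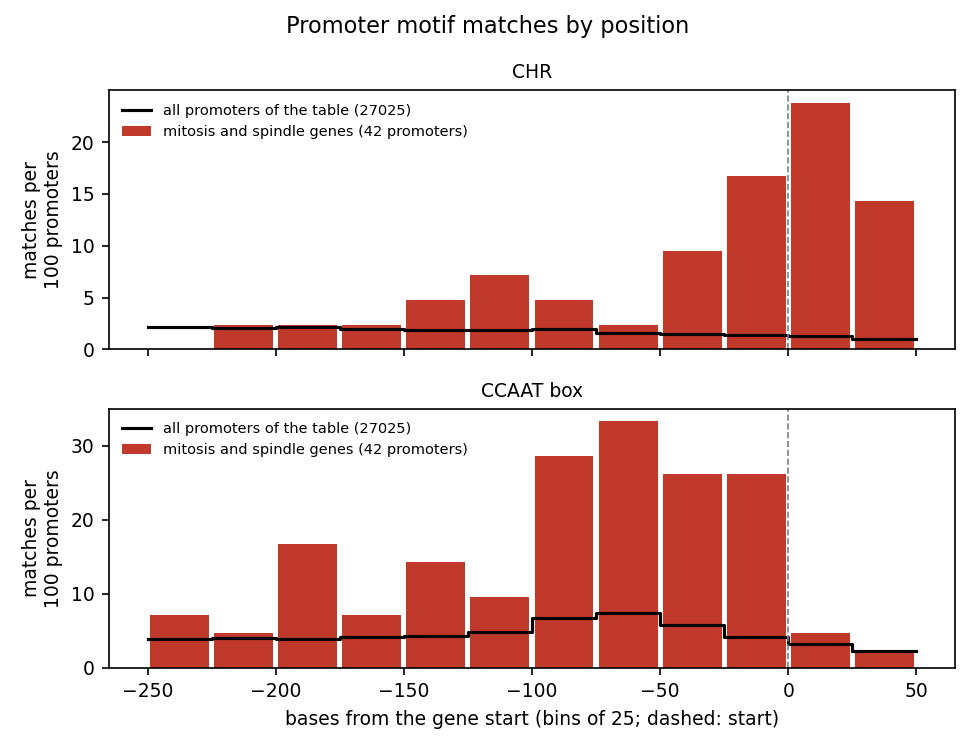
Matches per 100 promoters (y axis) in 25-base bins of distance from the RefSeq start (x axis), for the 42 members with a promoter entry and for all 27025 genes. In members the CHR letters peak just after the start, at 23.8 against 1.25 matches per 100 promoters, and CCAAT peaks 51 to 75 bases before it, at 33.3 against 7.37.

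Members with and without the CHR letters did not separate by much on the arrays. The 29 with them had a median log2 difference of 0.13 and the 13 without them a median of 0.00. Other genes with both CHR and CCAAT letters (611 measured) had a median of -0.04, and 21.4% of them passed 2-fold, beside 19.6% of all 8922 measured genes with a promoter entry. None of the 26 members with both motifs did so.

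Among the cyclins, CDK1 and entry control, 6 of 10 members were higher and 4 lower, with a median of 0.03. Cks1b, a small subunit that binds cyclin-dependent kinases and also helps the SCF ligase to degrade p27, was the lowest member as scaled here. With quantile normalization, cyclic loess and the authors' values, Mad2l1 was lower than Cks1b. With cyclic loess Cks1b was at -0.57, short of 1.5-fold. Cks1b had processed signals of 15487 in Jam3-null and 28487 in WT cells, which made it 1.72-fold lower in Jam3-null cells (log2 difference -0.78, 95% interval from the error model -1.18 to -0.38, on 1 probe, chr3:89219410-89219469 on mm9). Its paralog Cks2 gave 33465 and 29831, a log2 difference of 0.26. The Cks1b difference was thus 1.05 below that of Cks2, with an error-model SD of 0.29.

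The CDC25 phosphatases, which remove the inhibitory phosphates from cyclin-dependent kinases, differed in direction. Cdc25b gave signals of 3295 and 2395 (log2 difference 0.56) on its brightest probe, and its dimmest probe gave 1.61 from signals of 56.3 and 19.7. Cdc25a gave 3771 and 2979 (0.44), and Cdc25c was lower at 306 and 406 (-0.31). Cdc25b and Cdc25c differed by 0.87, with an error-model SD of 0.29.

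Of the mitotic cyclins, Ccnb2 stood at 34575 and 26635 (0.47) and Ccnb1 at 2780 and 3053 (-0.04). The remaining probes of Ccnb1 gave -0.14 and -0.38. Cyclin A2, active from S phase into mitosis, was level at 13135 and 13937 (0.01). Cdk1, the kinase that both cyclins activate, was 2939 and 3868 (-0.30). Foxm1, the transcription factor that drives many genes of the set in G2, was level at 2778 and 2864 (0.05).

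The spindle checkpoint genes were the group with the lowest median, -0.48, and all 5 were lower in Jam3-null cells, although cyclic loess left 3 of 5 lower and the mean over probes 4 of 5. Of all genes measured, 55.2% were lower. Mad2l1, the MAD2 protein that binds CDC20 and blocks it, gave signals of 1441 and 2622, which is 1.7-fold lower (-0.77, interval -1.17 to -0.37). Its other probe gave -0.73 from 1415 and 2505. Ttk, the MPS1 kinase that starts checkpoint signalling, gave 206 and 316 (-0.52). Bub1b, the BUBR1 component of the inhibitor complex, gave 1786 and 2663 (-0.48). Bub1 was nearer to level at 2341 and 2673 (-0.10). Bub3, which brings both to the kinetochore, gave -0.18 on its brightest probe (16044 and 19494) and 0.61 on a dimmer one (1207 and 846), so its sign was not settled.

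The 6 centromere and kinetochore members were all higher in Jam3-null cells, with a median of 0.32, and 5 of 6 were with spike-in scaling. Of all genes measured, 44.8% were higher. Cenpe, a kinesin that captures microtubules at the kinetochore, gave 13195 and 10448 (0.43). Spc25 of the NDC80 complex gave 2439 and 1988 (0.39). Cenpf gave 5943 and 5003 (0.34), and Cenpa, the histone H3 variant that marks centromeres, 3934 and 3418 (0.30). A dimmer probe of Cenpf gave 1.09 from signals of 52.7 and 26.4. Ndc80 (0.13) and Nuf2 (0.07) of the NDC80 complex differed by less than 1 error-model SD. The remaining subunit, Spc24, is no member and, named after its value was seen, was lower at 1722 and 2225 (-0.27). The 95% interval lay above 0 for Cenpe alone of the 6, and the differences were small.

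Of the 9 spindle motors and microtubule proteins, 8 were higher (44.8% of all genes measured were), with a median of 0.21. The same count was found with every alternative scaling, and it was 7 of 8 among the brighter genes. Kif23, the motor of the centralspindlin complex, gave 2575 and 1986 (0.47), and Nusap1, which bundles spindle microtubules, 5593 and 4372 (0.45). Kif22, a chromosome arm motor, gave 20253 and 16710 (0.37). Kif2c (0.29), Prc1 (0.21), Hmmr (0.19), Kif11 (0.16) and Tpx2 (0.16) were higher by less. Kif20a, a kinesin of the central spindle, was the exception at 9627 and 11808 (-0.20).

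**Figure D4:**
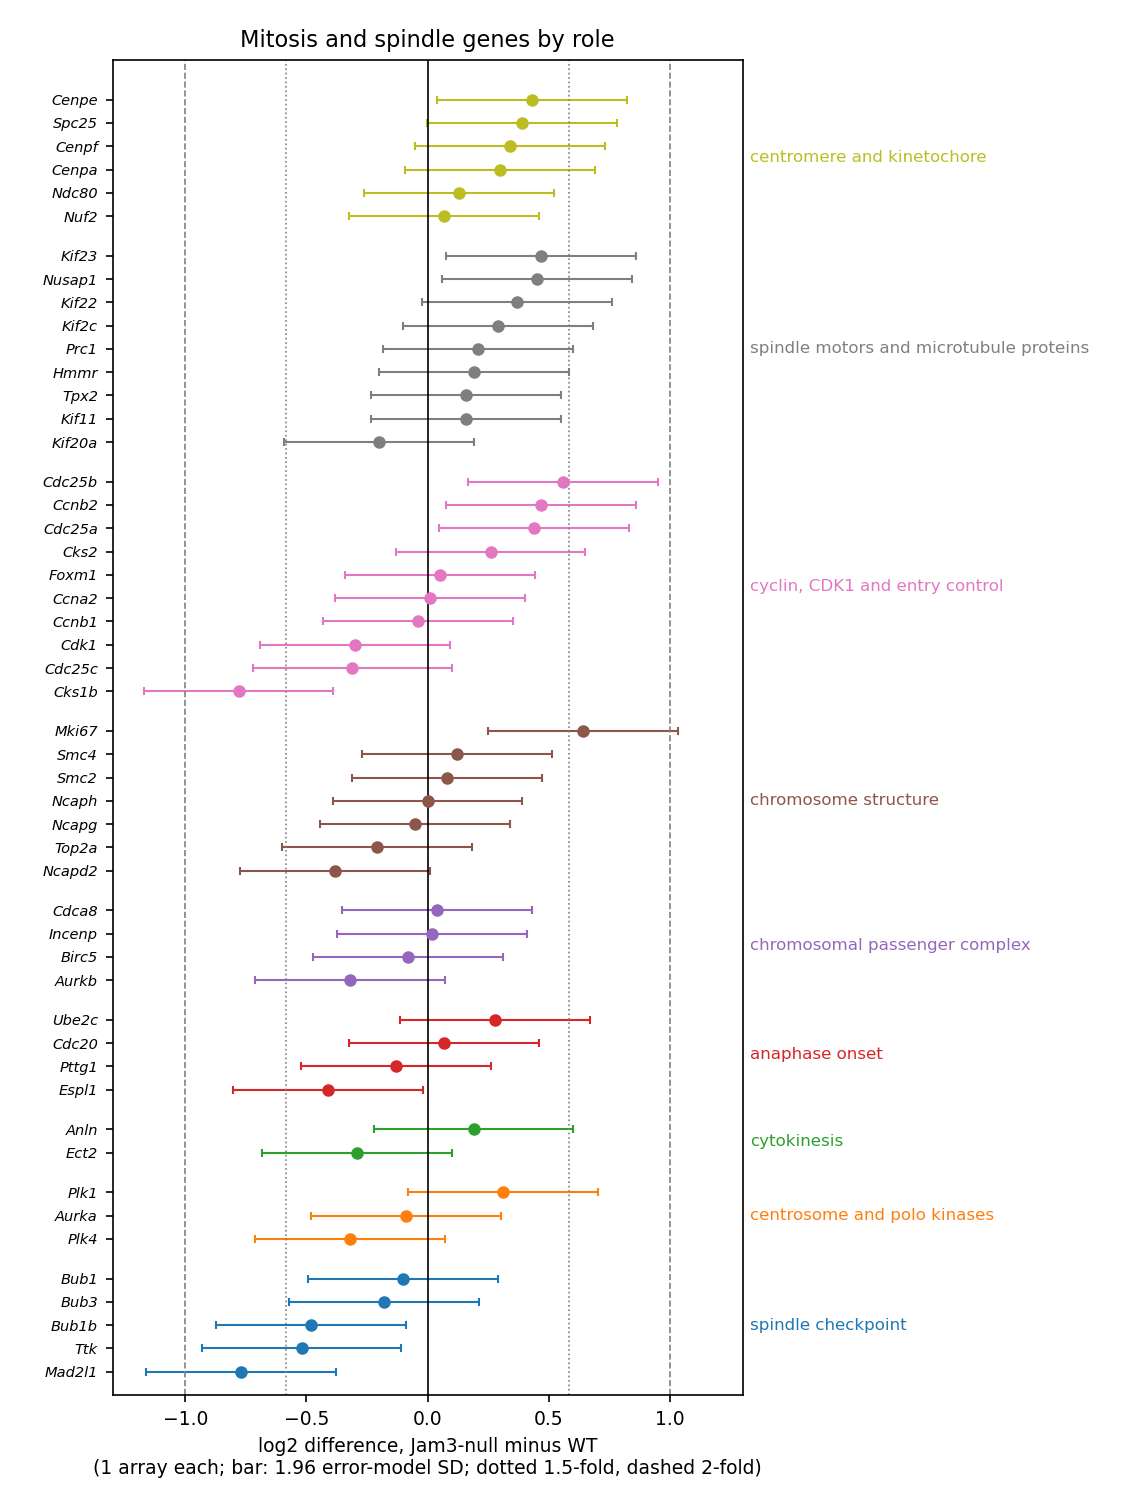
Log2 difference, Jam3-null minus WT (x axis), of each of the 50 members grouped by role, with bars for the 95% interval of the scanner software's error model (1 array per genotype). The 5 spindle checkpoint members lie left of 0 (3 of 5 with cyclic loess) and the 6 centromere and kinetochore members right of it (5 of 6 with spike-in scaling), and no member reaches 2-fold.

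Centrosome and polo kinases went in different directions. Plk1, which acts at many steps of mitosis, gave 17275 and 14935 (0.31). Plk4, which controls centriole duplication, gave 850 and 1138 (-0.32). The difference between the pair was 0.63, with an SD of 0.29. Aurka, the Aurora kinase of the spindle poles, gave 14284 and 16246 (-0.09).

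In the chromosomal passenger complex, which corrects faulty attachments, 3 of the 4 subunits were level on their brightest probes as scaled here. Incenp was 38526 and 40726 (0.02), Cdca8 29080 and 30151 (0.04), and Birc5, the survivin subunit, 49514 and 55791 (-0.08). With cyclic loess these 3 were at 0.26, 0.27 and 0.18, and with spike-in scaling at -0.07, -0.04 and -0.16. Dimmer probes of Cdca8 gave 0.24 (2009 and 1819) and 0.73 (65 and 41.8). The kinase of the complex, Aurkb, was 3094 and 4131 (-0.32), with a 95% interval that held 0.

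Among chromosome structure genes, Mki67 was the highest of all members, except with the mean over probes (0.68, below 0.94 for Cdc25b and 0.72 for Cenpf). Its protein, Ki-67, coats mitotic chromosomes and is the usual marker of proliferating cells in pathology. It had signals of 44058 in Jam3-null and 30309 in WT cells, 1.55-fold higher in Jam3-null cells (0.64, interval 0.24 to 1.04; chr7:142881591-142881650 on mm9), and its other probe gave 0.73 from 11022 and 7114. Top2a, the topoisomerase that untangles sister chromatids, was on the other side at 4104 and 5080 (-0.21), although another probe of it gave 0.17. The difference between this pair of proliferation markers was 0.85, with an SD of 0.29.

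The 5 condensin I subunits, which fold chromosomes for mitosis, lay between -0.38 and 0.12. Ncapd2 was the lowest at 17776 and 24701 (-0.38), whereas Smc4 (0.12), Smc2 (0.08), Ncaph (0.00) and Ncapg (-0.05) were level. Probes of Smc2 and of Smc4 differed in sign.

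At anaphase onset, Espl1, the separase, gave 966 and 1374 (-0.41), and its inhibitor Pttg1, the securin, 7531 and 8803 (-0.13). Cdc20, the activator of the anaphase-promoting complex, was level at 16107 and 16410 (0.07). Ube2c, its ubiquitin-conjugating enzyme, gave 11345 and 9983 (0.28). Of the cytokinesis genes, Anln, the anillin of the contractile ring, gave 307 and 287 (0.19), with 0.67 on another probe (343 and 231). Ect2, which activates RhoA there, gave 2545 and 3337 (-0.29), with 0.19 on another probe.

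Of the 50 members, 20 had 1 probe. In 25 members several probes were measured, and these agreed in sign in 20 and differed in 5 (Bub3, Ect2, Smc2, Smc4 and Top2a). Across the 10 alternative treatments of the data, 35 members kept their sign in each one they entered. The other 15 changed sign in at least 1.

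**Figure D5:**
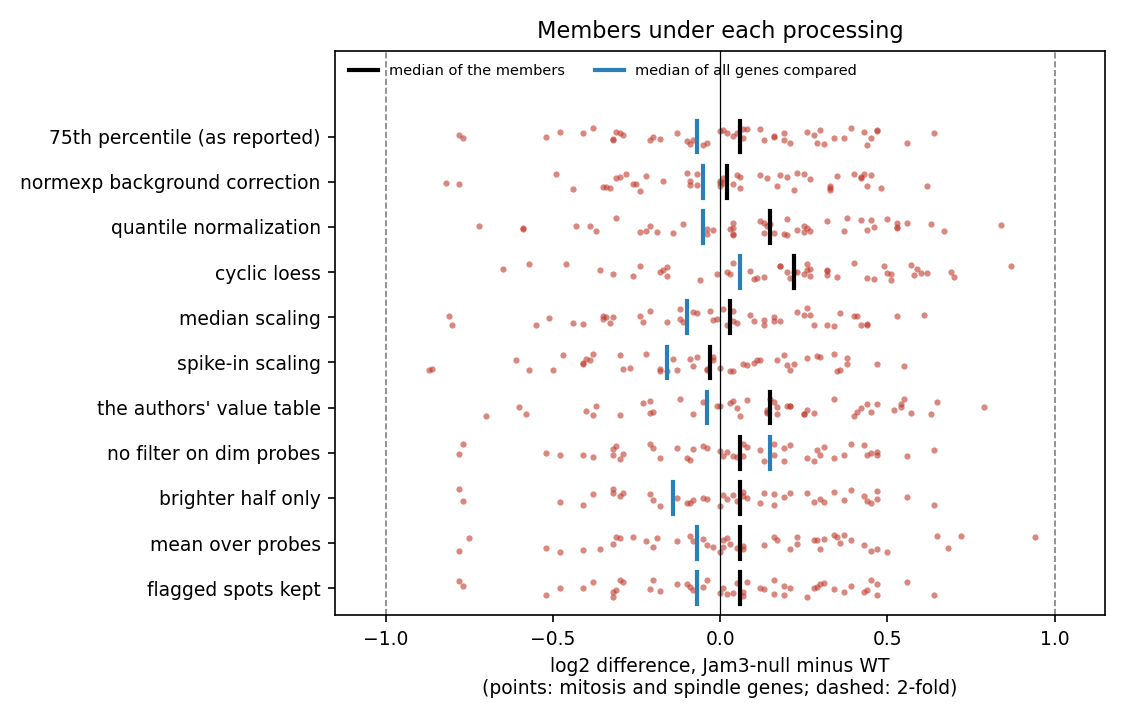
Log2 difference, Jam3-null minus WT (x axis), of each member (points) under each processing of the arrays (rows), with bars for the median of the members and the median of all genes compared. No member passes 2-fold in any row, and the median of the members runs from -0.03 to 0.22.

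Other cell cycle genes place these values. A list of 56 further mitosis genes, all measured, had the same median of 0.06 (-0.03 to 0.17 over the alternatives), with 34 higher and 22 lower. Of the 56, 9 were lower by 1.5-fold or more, and 2 of these 9 by over 2-fold. Both shares were larger among all genes measured, at 20.3% and 8.63%. The largest differences were Cenpp at 1573 and 3823 (-1.18), Psrc1 at 1227 and 2965 (-1.18) and Cenph at 2783 and 5733 (-0.95). Cenpp and Cenph belong to the constitutive centromere network, the inner layer that joins centromeric chromatin to the outer kinetochore. Of 9 genes of that network on the list, grouped after their values were seen, 7 were lower and 5 at least 1.5-fold lower, with a median of -0.61. Over the alternatives that kept all 9, 7 or 8 were lower. Cenpn (-0.78), Cenpm (-0.76) and Cenpk (-0.61) were among these 5, and Cenpl was higher at 0.66.

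Genes that act at neighbouring steps gave other medians. Of 14 cohesin and sister chromatid genes, 6 were higher and 8 lower (median -0.06), with Nipbl at -0.62, Pds5b at -0.54 and Esco2 at 0.50. Of 15 subunits and regulators of the anaphase-promoting complex, 12 were lower (median -0.19), led by Anapc5 at -0.58, Anapc1 at -0.48 and Cdc26 at -0.47, and none reached 1.5-fold. The direction of the cohesin median turned with the scaling (-0.15 to 0.12), and that of the complex did not (-0.28 to -0.05).

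The steps before mitosis lay further from 0. Of 47 DNA replication licensing and fork genes, 43 were lower in Jam3-null cells, with a median of -0.50. A difference of 1.5-fold or more downward was found in 18 of them (38.3%, against 20.3% of all genes measured). Only 4 passed 2-fold downward (8.51%, near the 8.63% of all genes), among them Gins2 (-1.24), Pold2 (-1.06) and Orc5 (-1.06). The G1 cyclins, kinases and their inhibitors had a median of 0.39 over the 13 measured of 15. Of the 13, 6 passed 2-fold (46.2%, against 18.9% of all genes measured), 3 in each direction. Ccnd1, cyclin D1, gave 74.7 and 4970 (-5.97), Cdkn1c, the inhibitor p57, 11506 and 303 (5.35), and Ccnd2 639 and 2607 (-1.93). These medians are given side by side with that of the members, and the difference between lists was not tested.

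Regulators of G1-S and G2-M transcription were mixed. Of 20 genes of the MuvB, E2F and pocket protein families, 19 were measured on both arrays, with a median of -0.01 (-0.10 to 0.16 over the alternatives), and 9 were higher and 10 lower. E2f2 gave 15885 and 3171 (2.42), E2f5 53.9 and 227 (-1.98) and E2f7, a repressing E2F, 1246 and 659 (1.02).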

How the data were processed

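Total RNA of sorted cells was labelled with Cy3 and hybridised to 2 one-colour Agilent arrays, 1 per genotype, which the file headers place on 1 slide in 1 scan. The deposited processed intensity was made with Agilent Feature Extraction 10.7.3.1, background-subtracted and detrended within each array, per the file headers; the submitters' processing notes name version 10.7. The authors' deposited table holds log2 values (median 5.66 on both arrays, r over 41165 probes 0.999 with the log2 processed signal); it served as an alternative, and its centring and method are unknown here.

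Each array was scaled on the log2 scale to the 75th percentile of its 43379 non-control spots (667.8 and 713.9), and the spots of a probe were averaged. Flagged spots (151 and 163) were left out. A gene took its probe with the highest mean signal, and entered with that probe well above background on both arrays (14351 genes). Signals printed for a gene are the processed signals before scaling, Jam3-null first. Probe coordinates come from the array files (mm9), and their exon or UTR position was not analysed here. Promoters were taken from RefSeq (GRCm38.p6), which had no entry for Aurkb, Ccna2, Cdc25c, Foxm1, Incenp, Kif20a, Smc4 and Tpx2.

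With 1 array per genotype there is no test. Members and lists were chosen with earlier results of these data known. All 50 members could be named, and of other lists the 3 genes with the largest differences and the sort markers; exceptions are stated. An item of the erythroid marker list is not reported here. Alternatives were normexp background correction (offset 50), quantile, cyclic loess, median and spike-in scaling, the authors' values, other filters, the mean over probes, and flagged spots kept. The gene step was tested on simulated data. Tools were R 4.3.3, limma 3.58.1, Python 3.11.15 and pandas 2.3.3. The number of arrays limits the precision.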

Additional observations from a re-analysis of the deposited data

How the results depend on the processing

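No member passed 2-fold under any of the 10 alternatives, and the furthest value was 0.94 (Cdc25b, mean over probes). The count at least 1.5-fold higher, 1 as reported, was 3 with quantile normalization, 6 with cyclic loess, 0 with spike-in scaling, 3 with the authors' value table and 4 with the mean over probes. The count at least 1.5-fold lower, 2 as reported, was 1 with cyclic loess and 3 with both quantile normalization and spike-in scaling. The cause was not tested. Of 496 single member values, 16 moved by more than 1 error-model SD, and the 12 members whose 95% interval excluded 0 kept their sign in each alternative they entered. These 12 were picked on the same 2 arrays for lying away from 0, so the kept sign is no further evidence for them. The median of the members lay 0.07 to 0.20 above that of all genes compared under 9 alternatives, and 0.09 below it (difference -0.09) with no filter on dim probes, where the median of all genes was 0.15. The replication median ran from -0.59 to -0.33 and that of the G1 genes from 0.30 to 0.49.

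No paired analysis was possible because the labels give 1 array per genotype and no replicate numbers. The 8 spike-in probes differed by a median of 0.09 (-0.02 to 0.12). Differences between mice were not measured, and the members' distance from 2-fold is a statement about these arrays. Dim probes, such as the dimmest of Cdc25b, are the least precise.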
